A study of Mus musculus with 4 samples.

Results

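Wnt proteins are secreted, lipid-modified ligands that bind Frizzled receptors and LRP co-receptors on the cell surface. Without a ligand, a destruction complex built on the scaffolds Axin and APC and the kinase GSK3 marks β-catenin for degradation; with a ligand, β-catenin accumulates and switches on genes through TCF factors. Tankyrases mark Axin for degradation and so favour the signal, and USP25, a protease that removes ubiquitin from other proteins, is known to bind and stabilise them. In the gut, the pathway maintains the stem cells of the crypts, and in the lung it acts between epithelium, mesenchyme and vessels.

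The genes described here are 46 named members of this pathway, found by symbol among the 24421 rows of a gene expression table. They comprise 33 components (7 Wnt ligands, 2 genes of ligand secretion, 9 receptors and co-receptors, 4 genes of the R-spondin axis, 4 secreted inhibitors, 2 tankyrases, 3 genes of the destruction complex and 2 TCF factors) and 13 target genes. Some of the targets, such as Axin2, Rnf43 and Znrf3, also restrain the pathway, and they are counted as targets only. Rows were matched by symbol alone, with no threshold on a level or a difference, but the list was drawn up with earlier results of these data known.

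The values come from polyA RNA-seq of 4 C57BL/6 mice aged 8 weeks, of which 2 were Usp25+/+, here called wild-type, and 2 were Usp25-/-, here called knockout. Where a pair of levels is given, the wild-type values are those of WT-139 and then WT-140, and the knockout values those of KO-826 and then KO-850. Every mouse had been given dextran sulfate sodium at 2.5% for 5 days and plain water for another 2 days, so the groups share this injury and no untreated mouse is part of the comparison. The samples are labelled as pieces of colon taken close to the anus. The labels name the allele only as Usp25-/- and do not say which cells lack the gene, nor whether the mice were littermates. Levels are FPKM, fragment numbers normalised for transcript length and library size, so levels of different genes can be compared.

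Several features of the libraries touch the results. Usp25 followed the labels, at 16.6 to 38.5 FPKM in Usp25+/+ and 1.71 to 2.65 FPKM in Usp25-/- mice (log2 difference -3.07 ± 0.47, SE, limma adjusted p = 0.968, and 0.0341 without mouse WT-140). Of 12 markers of colonocytes and goblet cells, 8 stayed below 1 FPKM in all 4 mice, and Aqp8, Zg16 and Cdx1 were listed at 0 throughout. Of the other 4, Lgals4 stood at 7.04 to 70.6 FPKM, Krt20 at 3.11 to 52.4 FPKM, Vil1 at 0.10 to 1.46 FPKM, and Tff3 at 7.25 FPKM in mouse KO-850 and 0 elsewhere. The 12 summed to 12.3 and 13.2 FPKM in wild-type and 124.7 and 44.1 FPKM in knockout mice, with 3 higher and 1 lower in Usp25-/- without overlap. The summed level of 8 markers of alveolar type II cells, which line the air sacs of the lung, was 1560 to 5011 FPKM, so most of the markers go against the labelled tissue in both genotypes. Mouse WT-139 stood apart: its log2 levels correlated at 0.876 to 0.89 with those of the other mice, which correlated at 0.933 to 0.968 among themselves over 12103 genes. It also had fewer genes listed at 0, 3862 against 7175 to 8813. In bulk samples, fewer cells of a type and less RNA per cell cannot be told apart.

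A member was tested when it reached 1 FPKM in at least 2 mice, which 26 of the 46 did, 20 components and 6 targets. None of the 26 passed through a single genotype. Another 12 members stayed below 1 FPKM in all 4 mice. Differences are given as log2(FPKM + 1) in Usp25-/- minus Usp25+/+ with their standard error; on this scale, changes of genes near 0 come out too small. Limma called 0% of 12103 genes once p-values were adjusted (Benjamini-Hochberg, threshold 0.05), and hence no member; without mouse WT-140 it called 163 genes, again no member. At an unadjusted p under 0.05 it had 272 genes higher (2.25%) and 128 lower (1.06%) in Usp25-/-. Adjusted p-values of the tested members lay between 0.968 and 0.998 by limma. The smallest p that an exact permutation test could give any gene here is 0.333.

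Porcn had the smallest p among the tested members and ranked 37 by p among all genes tested. It encodes Porcupine, the acyltransferase that attaches the lipid without which Wnt ligands are not secreted. Porcn had wild-type levels of 5.98 and 5.60 FPKM and knockout levels of 14.7 and 14.3 FPKM. The genotypes did not overlap, and the mice within each genotype lay close together, at 5.79 ± 0.27 against 14.5 ± 0.32 FPKM (mean ± SD, n = 2). The log2 difference was 1.19 ± 0.27, the only one among the members at an unadjusted p under 0.05 (limma, adjusted p = 0.968). Leaving out each mouse in turn gave 1.15 to 1.23. Porcn lies on chromosome X from 7770974 to 7783651 (mm9, minus strand), where the annotation shows no overlapping gene. The Y-linked gene Ddx3y stood at 12.7 FPKM or more and Xist at no more than 0.11 FPKM in every mouse.

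Wls, the carrier that takes lipid-modified Wnt ligands to the cell surface, was the most abundant component. It had wild-type levels of 33.4 and 32.8 FPKM and knockout levels of 38.8 and 39.1 FPKM. The groups did not overlap, but the log2 difference of 0.23 ± 0.28 was smaller than its error.

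Of the 7 Wnt ligands only Wnt7a and Wnt7b reached the level for testing. Wnt7b is known as a ligand of lung epithelium. Wnt7a had wild-type levels of 1.25 and 2.60 FPKM and knockout levels of 5.61 and 3.33 FPKM. Its groups did not overlap, with a log2 difference of 0.91 ± 0.40 that was 0.57 without mouse WT-139 and 0.60 without mouse KO-826. Wnt7b had wild-type levels of 3.79 and 1.03 FPKM and knockout levels of 5.84 and 2.07 FPKM. Its groups overlapped because mouse WT-139 exceeded mouse KO-850, and its log2 difference of 0.56 ± 0.60 turned to -0.064 without mouse WT-140 and to -0.022 without mouse KO-826. The other ligands were Wnt3a, Wnt4, Wnt5a, Wnt5b and Wnt11. Wnt11 reached 1.28 FPKM in mouse KO-850, the others stayed at or below 0.79 FPKM, and Wnt3a was listed at 0 in 3 mice.

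**Figure D1:**
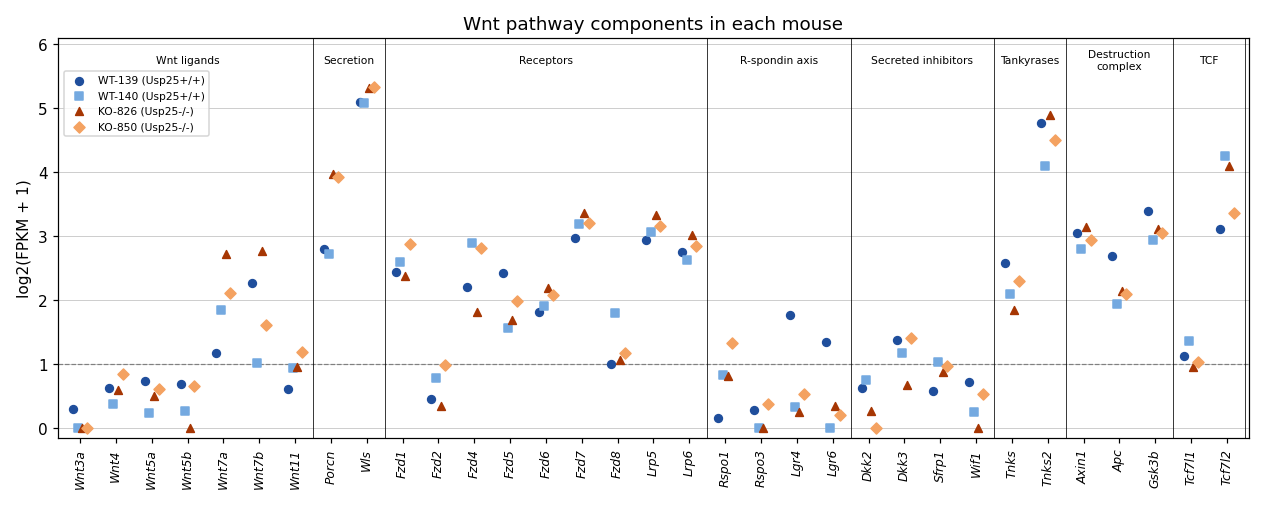
Levels of the 33 pathway components (vertical axis, log2(FPKM + 1)), 1 point per mouse, with genes ordered by role; the dashed line marks 1 FPKM. Porcn separates the genotypes, at 5.60 to 5.98 FPKM in Usp25+/+ and 14.3 to 14.7 FPKM in Usp25-/- mice, while most ligands and secreted inhibitors lie near or below the line.

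Among the 9 receptors, 8 were tested, and Fzd6, Fzd7, Lrp5 and Lrp6 were higher in both Usp25-/- mice than in both Usp25+/+ mice by small margins. Lrp5 and Lrp6, the co-receptors that relay the canonical signal, had wild-type levels of 6.67 and 7.39 FPKM for Lrp5 and 5.71 and 5.18 FPKM for Lrp6, and knockout levels of 9.02 and 7.94 FPKM and 7.06 and 6.16 FPKM in the same order. Fzd7, a receptor used by gut stem cells, read 6.84 and 8.08 FPKM in wild-type and 9.29 and 8.18 FPKM in knockout mice. Fzd6, a receptor of planar polarity, read 2.51 and 2.74 FPKM in wild-type and 3.58 and 3.25 FPKM in knockout mice. These 4 log2 differences lay between 0.20 and 0.28, each below its standard error of 0.28 to 0.29. Leaving out each mouse in turn gave 0.097 to 0.31 for Fzd7, 0.16 to 0.32 for Lrp5, 0.15 to 0.32 for Lrp6 and 0.23 to 0.34 for Fzd6. The gap between the genotypes for Fzd7 was narrow, and it overlapped under median-of-ratios scaling.

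The remaining receptors overlapped between the genotypes, and each of their directions turned when a mouse was left out. Fzd1 had wild-type levels of 4.45 and 5.06 FPKM and knockout levels of 4.20 and 6.32 FPKM, and its log2 difference of 0.10 turned to -0.14 without mouse KO-850. Fzd5, which acts in epithelial cells, read 4.39 and 1.95 FPKM in wild-type and 2.23 and 2.95 FPKM in knockout mice, and -0.16 turned to 0.28 without mouse WT-139. Fzd8 read 1.00 and 2.48 FPKM in wild-type and 1.09 and 1.24 FPKM in knockout mice, and -0.29 turned to 0.11 without mouse WT-140. For each of these 3 receptors the highest and the lowest mouse shared a genotype. Fzd2 did not exceed 0.98 FPKM.

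Fzd4, a receptor of vessels that also binds the non-Wnt ligand Norrin, followed an order that crossed the genotypes. It had wild-type levels of 3.61 and 6.40 FPKM and knockout levels of 2.53 and 6.00 FPKM, so that mice WT-140 and KO-850 exceeded the others. Its log2 difference of -0.23 ± 0.46 turned to 0.11 without mouse WT-140 and to 0.26 without mouse KO-826. The target gene Nkd1, an inhibitor that binds Dishevelled, had the same order, with wild-type levels of 2.45 and 5.30 FPKM and knockout levels of 1.81 and 3.49 FPKM, and its log2 difference of -0.39 ± 0.44 turned to 0.041 without mouse WT-140. So did 4 of 5 endothelial markers (Pecam1, Cdh5, Kdr and Tek, but not Vwf). The summed level of the 5 was 65.0 and 123 FPKM in wild-type and 46.1 and 91.1 FPKM in knockout mice. None of the 5 was below 1 FPKM in all 4 mice. The order was also that of 5 of 5 T cell, 4 of 4 B cell and 5 of 8 alveolar type II markers. The part of these cells in the values of Fzd4 and Nkd1 was not tested. Mice WT-140 and KO-850 exceeded the others for 4 of the 26 tested members (Fzd1, Fzd4, Fzd8 and Nkd1), or 15.4%, and for 22.7% of all genes tested. The opposite order, mice WT-139 and KO-826 above the others, held for 6 members (Wnt7b, Tnks2, Axin1, Apc, Gsk3b and Cd44), or 23.1%, and for 16% of all genes tested.

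R-spondins are secreted proteins that bind LGR receptors and raise Wnt signalling by removing RNF43 and ZNRF3 from the membrane. None of the 4 members of this axis was tested. Rspo1 had wild-type levels of 0.12 and 0.78 FPKM and knockout levels of 0.75 and 1.52 FPKM, and Rspo3 did not exceed 0.29 FPKM. The receptor genes Lgr4 and Lgr6 stood at 2.42 and 1.53 FPKM in mouse WT-139 and at no more than 0.44 and 0.27 FPKM in the other mice. Both were therefore high in only 1 of the wild-type mice.

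The secreted inhibitors were low throughout. Dkk3, the only tested gene of the 4, had wild-type levels of 1.58 and 1.25 FPKM and knockout levels of 0.59 and 1.66 FPKM, and its log2 difference of -0.23 turned to 0.14 without mouse KO-826. Dkk2, which binds LRP co-receptors, stood at 0.54 and 0.69 FPKM against 0.20 FPKM and a value listed at 0. Sfrp1 and Wif1, which bind Wnt ligands directly, did not exceed 1.05 and 0.65 FPKM.

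The tankyrase genes, whose proteins are known partners of USP25, overlapped between the genotypes. Tnks had wild-type levels of 5.01 and 3.29 FPKM and knockout levels of 2.59 and 3.90 FPKM, a log2 difference of -0.27 ± 0.35. Tnks2 was more abundant, with wild-type levels of 26.1 and 16.1 FPKM and knockout levels of 28.7 and 21.6 FPKM, a log2 difference of 0.27 ± 0.36. The genes thus pointed in opposite directions, each by less than its standard error. The difference of Tnks shrank to -0.031 without mouse WT-139, and that of Tnks2 turned to -0.067 without mouse WT-140. Tnks lies on chromosome 8 from 35892233 to 36028744 and Tnks2 on chromosome 19 from 36908722 to 36967967 (mm9). These are transcript levels and say nothing of the proteins.

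The destruction complex genes also overlapped. Axin1, the scaffold that tankyrases act on, had wild-type levels of 7.29 and 5.96 FPKM and knockout levels of 7.83 and 6.67 FPKM. Apc, the tumour suppressor of the complex, read 5.45 and 2.82 FPKM in wild-type and 3.42 and 3.28 FPKM in knockout mice. Gsk3b, the kinase that phosphorylates β-catenin, read 9.49 and 6.70 FPKM in wild-type and 7.66 and 7.27 FPKM in knockout mice. Mouse WT-139 was the highest mouse for Apc and Gsk3b. Log2 differences were 0.12 ± 0.29, -0.19 ± 0.37 and -0.086 ± 0.30 for Axin1, Apc and Gsk3b. Without mouse WT-139 those of Apc and Gsk3b turned to 0.19 and 0.14, and without mouse WT-140 that of Axin1 turned to -0.010.

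Of the TCF factors, Tcf7l2, the main partner of β-catenin in gut epithelium, had wild-type levels of 7.68 and 18.1 FPKM and knockout levels of 16.1 and 9.31 FPKM. Each genotype held a high and a low mouse, and the log2 difference of 0.047 ± 0.50 turned to -0.52 without mouse WT-139 and to -0.32 without mouse KO-826. Tcf7l1, a repressor of Wnt targets, read 1.19 and 1.57 FPKM in wild-type and 0.94 and 1.03 FPKM in knockout mice. Its groups did not overlap and its log2 difference was -0.26 ± 0.32, and -0.14 without mouse WT-140. A protein-coding gene lies over Tcf7l1 on the opposite strand in the annotation, and whether the values used strand is not given, so its level is uncertain. The same limit holds for Wnt5b, Lgr5 and Ccnd1, and the small RNA gene SNORA17 overlaps Gsk3b on the same strand.

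**Figure D2:**
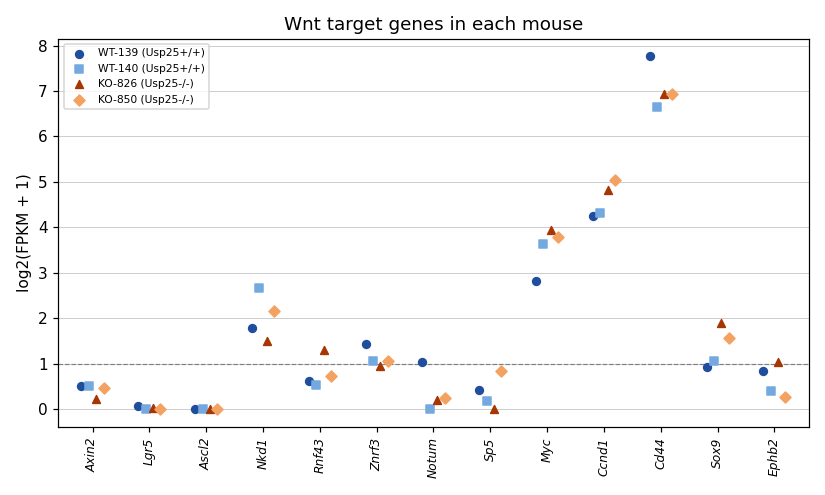
Levels of the 13 Wnt target genes (vertical axis, log2(FPKM + 1)), 1 point per mouse; the dashed line marks 1 FPKM. Cd44, Ccnd1 and Myc lie well above the line, whereas Axin2, Lgr5, Ascl2 and Sp5 lie below it in all 4 mice.

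The target genes ranged from Cd44, at 99.3 to 215 FPKM, down to genes of stem cells and feedback that were nearly or wholly undetected. Lgr5, the receptor that marks crypt stem cells, did not exceed 0.05 FPKM, and Ascl2, a transcription factor of the same cells, was listed at 0 in all 4 mice. Axin2, the feedback scaffold often used as a readout of the pathway, had wild-type levels of 0.42 and 0.43 FPKM and knockout levels of 0.16 and 0.39 FPKM. Sp5, a transcription factor induced directly by β-catenin, did not exceed 0.79 FPKM and was listed at 0 in mouse KO-826. In contrast Ctnnb1, the gene of β-catenin itself, read 232 and 269 FPKM in wild-type and 367 and 280.1 FPKM in knockout mice, a log2 difference of 0.36 ± 0.35 that was 0.16 without mouse KO-826 and 0.55 without mouse KO-850. Of 5 markers of crypt stem cells, Lgr5, Ascl2 and Axin2 thus stayed below 1 FPKM in all mice, Smoc2 did not exceed 1.72 FPKM, and Olfm4 reached 34.8 FPKM in mouse WT-139 and at most 0.69 FPKM elsewhere.

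Promoter windows of 300 bases, from 250 before to 50 after the start of transcription, are shown for Sp5, the target with the most TCF words among those with a window, for Axin2, a target without any, and for Fzd7, a component with 1. The sequences are RefSeq's (build GRCm38.p6). Each was matched once, without a mismatch, on its RefSeq chromosome and strand in mm9, whose coordinates are given. Other chromosomes were not searched. Capitals mark the words searched for, CTTTGAA or CTTTGAT or CTTTGTA or CTTTGTT, on either strand.
Sp5 promoter, chr2:70312730-70313029, plus strand: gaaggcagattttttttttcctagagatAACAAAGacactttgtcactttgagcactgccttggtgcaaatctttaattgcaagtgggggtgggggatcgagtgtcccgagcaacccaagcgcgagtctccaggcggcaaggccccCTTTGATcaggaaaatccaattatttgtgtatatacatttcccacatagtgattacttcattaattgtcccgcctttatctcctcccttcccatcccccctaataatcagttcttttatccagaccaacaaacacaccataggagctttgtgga
Axin2 promoter, chr11:108781413-108781712, plus strand: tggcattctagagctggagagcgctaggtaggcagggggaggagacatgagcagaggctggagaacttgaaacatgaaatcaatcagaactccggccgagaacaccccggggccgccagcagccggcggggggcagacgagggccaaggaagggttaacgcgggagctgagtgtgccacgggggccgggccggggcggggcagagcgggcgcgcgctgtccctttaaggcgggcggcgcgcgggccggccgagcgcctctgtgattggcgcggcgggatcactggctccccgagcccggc
Fzd7 promoter, chr1:59538741-59539040, plus strand: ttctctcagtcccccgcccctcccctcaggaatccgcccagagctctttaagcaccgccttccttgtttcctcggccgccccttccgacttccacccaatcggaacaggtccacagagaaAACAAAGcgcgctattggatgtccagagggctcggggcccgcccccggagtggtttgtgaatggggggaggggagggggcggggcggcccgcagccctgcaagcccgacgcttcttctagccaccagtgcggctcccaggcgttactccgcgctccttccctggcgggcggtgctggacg

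Windows were available for 7 of the 13 targets and 19 of the 33 components, several of which have more than 1 start. A word was found in 1 of 8 target windows (12.5%) and in 4 of 23 component windows (17.4%). The share was 16.9% among all 32851 RefSeq windows. Both shares lay near that of all windows, and a match is a description of the letters only.

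Among the tested targets Ccnd1, Sox9 and Myc were higher in both Usp25-/- mice. Ccnd1, which encodes the cell cycle regulator cyclin D1, had wild-type levels of 18.0 and 19.0 FPKM and knockout levels of 27.1 and 32.1 FPKM. Its groups did not overlap, with a log2 difference of 0.65 ± 0.28 (limma, adjusted p = 0.968). Ccnd1 lies on chromosome 7 from 152115836 to 152125774 (mm9), where Oraov1 overlaps it on the opposite strand. Oraov1 stood at 4.40 to 6.25 FPKM and overlapped between the genotypes.

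Sox9, a transcription factor of epithelial progenitors in gut and lung, had wild-type levels of 0.91 and 1.08 FPKM and knockout levels of 2.71 and 1.97 FPKM, a log2 difference of 0.73 ± 0.32. Myc, a transcription factor of growth, read 6.04 and 11.4 FPKM in wild-type and 14.3 and 12.9 FPKM in knockout mice. Its groups did not overlap, but mouse WT-140 lay closer to the Usp25-/- mice than to mouse WT-139, and the log2 difference of 0.64 ± 0.37 was 0.23 without mouse WT-139. None of these 3 targets passed limma at an unadjusted p of 0.05.

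The remaining tested targets were Cd44 and Znrf3 beside Nkd1. Cd44, an adhesion receptor that leukocytes also express, had wild-type levels of 215 and 99.3 FPKM and knockout levels of 121 and 120.3 FPKM. Mouse WT-139 was the highest, and the log2 difference of -0.27 ± 0.46 turned to 0.28 without it. The summed level of 7 neutrophil markers was 39995 FPKM in mouse WT-139 and 695 to 1971 FPKM in the other mice, none of the 7 being below 1 FPKM in all 4 mice, and its part in Cd44 was not tested. Znrf3, a ubiquitin ligase that removes Frizzled receptors, read 1.68 and 1.08 FPKM in wild-type and 0.93 and 1.07 FPKM in knockout mice. Its groups did not overlap, by a narrow margin, with a log2 difference of -0.24 ± 0.33 that was -0.057 without mouse WT-139. The groups did overlap once the libraries were scaled to a common total.

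Of the targets too low to test, Rnf43, which like Znrf3 restrains the pathway, had wild-type levels of 0.52 and 0.43 FPKM. Its knockout levels were 1.47 and 0.65 FPKM. Notum, a secreted enzyme that removes the lipid from Wnt ligands, reached 1.04 FPKM in mouse WT-139 and at most 0.18 FPKM elsewhere. Ephb2, a receptor that positions cells along the crypt, read 0.79 and 0.32 FPKM in wild-type and 1.05 and 0.20 FPKM in knockout mice. Only Rnf43 of these did not overlap between the genotypes, being higher in Usp25-/-. Axin2, described above and also untested, was lower in Usp25-/- without overlap. Of the 13 targets 6 were tested, and among the rest 1 was thus higher and 1 lower without overlap. Of all 24394 genes 12103 were tested, and among the rest 462 were higher and 1005 lower without overlap. Counts of 1 are too small to set against these. With no filter on FPKM, 4 of 12 targets were higher and 2 lower without overlap, beside 12.7% and 12.8% of 21761 genes.

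**Figure D3:**
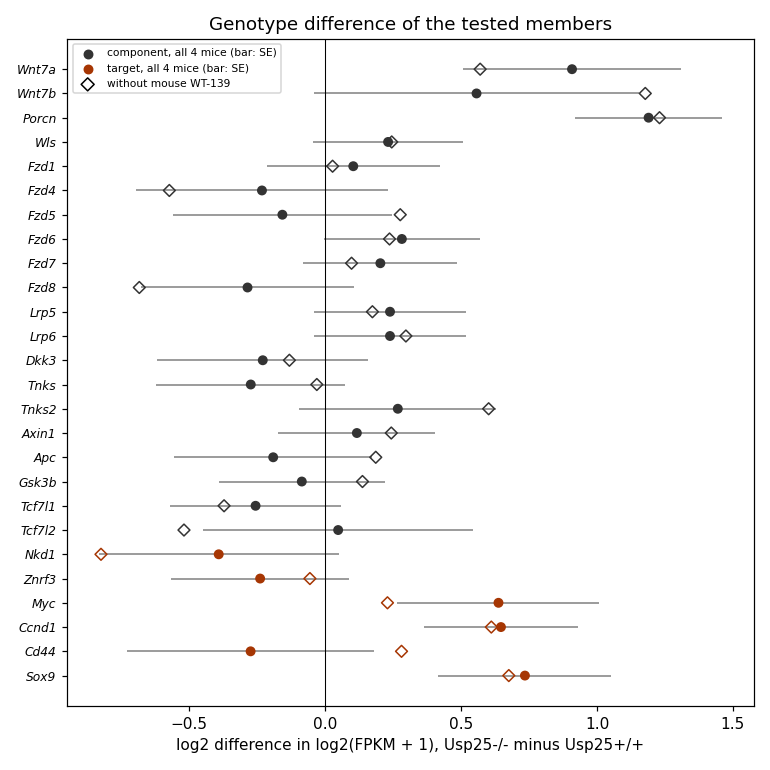
Log2 difference in log2(FPKM + 1), Usp25-/- minus Usp25+/+, for the 26 tested members on the horizontal axis; filled points show all 4 mice with the standard error as a bar, open diamonds the value without mouse WT-139. Porcn has the largest difference, 1.19 with all mice and 1.23 without WT-139, and the diamonds of Fzd5, Apc, Gsk3b, Tcf7l2 and Cd44 lie on the other side of 0 from their points.

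Components and targets are set here beside all genes tested. The median log2 difference was 0.11 over the 20 tested components, 0.20 over the 6 tested targets and 0.034 over all 12103 genes. The target median describes no target. It falls between 3 targets at -0.39 to -0.24 and 3 at 0.64 to 0.73. Of the components 12 were higher and 8 lower, and of the targets 3 were higher and 3 lower, beside 53.6% higher among all genes. Genotypes did not overlap for 7 components higher in Usp25-/- (35%) and for 1 lower (5%), beside 19% and 14.7% of all genes tested. For targets they did not overlap for 3 higher (50%) and 1 lower (16.7%). Without mouse WT-139, which leaves 1 Usp25+/+ mouse, 13 of 20 components and 4 of 6 targets were higher without overlap, beside 35.7% of all genes, and 4 and 2 were lower, beside 37.2%. Without mouse WT-140, 9 components and 3 targets were higher, beside 46.1% of all genes, and 5 and 2 were lower, beside 34.9%. Without mouse KO-826, 9 and 3 were higher, beside 30.3%, and 1 and 1 lower, beside 22.6%. Without mouse KO-850, 10 and 3 were higher, beside 31.7%, and 5 and 2 lower, beside 29.1%. The component median was 0.18 without mouse WT-139 and 0.22 without mouse KO-850, and the target median was 0.36 without mouse WT-140 and 0.13 without mouse KO-850. These counts describe tested members only and are no test of the lists.

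Mouse WT-139 was the highest or the lowest of the 4 mice for 15 of the 26 tested members (57.7%) and for 68.9% of all genes tested. Leaving out each mouse in turn changed the direction of 13 of the 26 tested members. Of the 13 that kept it, 12 did so because groups that do not overlap cannot turn in this way, and the other was Tnks.

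Markers of epithelial cells were mixed between the genotypes. Without overlap, 2 of 8 alveolar type II and 1 of 4 alveolar type I markers were higher in Usp25-/- mice, and 0 were lower. Of 4 markers of airway club cells, 0 were higher and 1 was lower without overlap. A list of 5 general epithelial markers was higher throughout. The summed level of Epcam, Cdh1, Krt8, Krt18 and Krt19 was 772 and 689 FPKM in Usp25+/+ and 3091 and 1189 FPKM in Usp25-/- mice. For 5 of the 5 the genotypes did not overlap, beside 19% higher and 14.7% lower among all genes tested. None of the 5 was below 1 FPKM in all 4 mice. Their part in the levels of Wnt7a, Porcn, Myc, Ccnd1 and Sox9 was not tested, nor in those of Wls, Fzd6, Fzd7, Lrp5 and Lrp6. Mouse KO-826 was well above mouse KO-850 in this sum. It was also above mouse KO-850 for Wnt7a, Sox9, Myc and, at 14.7 against 14.3 FPKM, Porcn, and below it for Ccnd1.

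**Figure D4:**
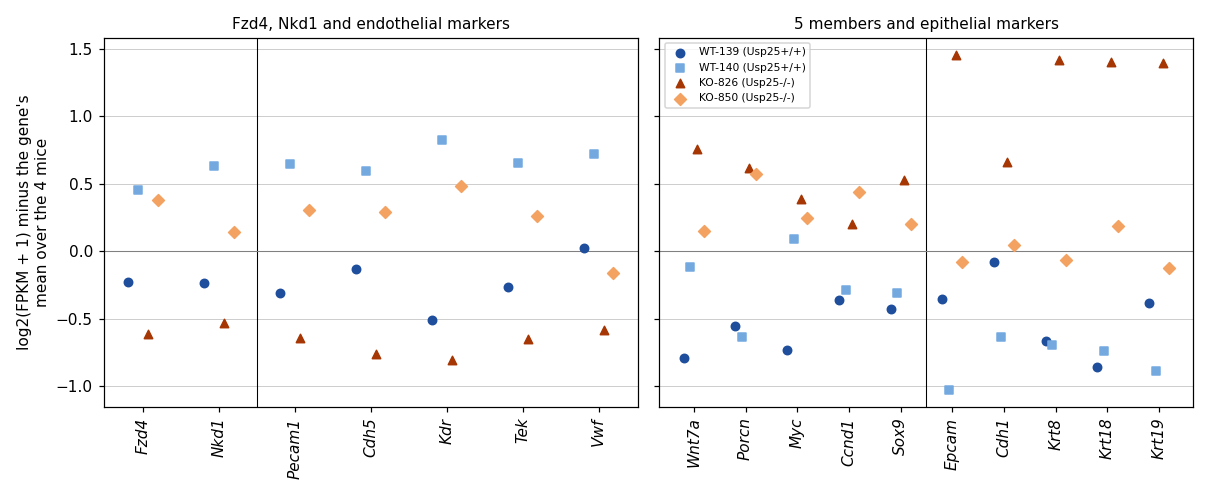
Log2(FPKM + 1) of each gene minus its mean over the 4 mice, with 1 point for each mouse; members stand left of the line in each panel and markers right of it. Fzd4 and Nkd1 are highest in mice WT-140 and KO-850, as are the endothelial markers Pecam1, Cdh5, Kdr and Tek. The other endothelial marker, Vwf, is lower in both Usp25-/- mice, at 8.21 and 11.4 FPKM against 13.1 and 21.7 FPKM. The epithelial markers are highest in mouse KO-826, where Porcn stands at 14.7 FPKM against 14.3 FPKM in mouse KO-850.

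The wider pathway was described from another list of 89 Wnt genes, 46 of them tested and none called by limma after adjustment. Of these 25 were higher and 21 lower, with a median log2 difference of 0.042. The genotypes did not overlap for 9 higher (19.6%) and 6 lower (13%), near the shares of all genes tested, 19% and 14.7%. These counts include 2 genes that passed the filter through 1 genotype only, so that their groups could not overlap. They are Ror2, counted as higher, and Bcl9, counted as lower. Bcl9 read 1.14 and 1.04 FPKM in wild-type and 0.86 and 0.78 FPKM in knockout mice. Of all 12103 genes tested, 226 passed in this way. The 6 with the smallest p were Ror2, Gsk3a, Tle1, Birc5, Pygo2 and Ep300. Ror2, a receptor of Wnt5a, had wild-type levels of 0.31 and 0.29 FPKM and knockout levels of 1.61 and 1.55 FPKM, a log2 difference of 0.99 ± 0.31 (limma, adjusted p = 0.968). It passed the filter through the Usp25-/- mice only, so a difference was built into its selection. Gsk3a, the paralogue of Gsk3b, read 42.8 and 36.6 FPKM in wild-type and 24.1 and 24.9 FPKM in knockout mice, a log2 difference of -0.67 ± 0.28.

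Tle1, a co-repressor that binds TCF factors, had wild-type levels of 5.83 and 2.73 FPKM and knockout levels of 8.46 and 8.02 FPKM. Pygo2, a co-activator of β-catenin, read 9.18 and 10.4 FPKM in wild-type and 14.7 and 14.6 FPKM in knockout mice. Birc5, the gene of survivin, a protein of dividing cells, read 7.72 and 10.9 FPKM in wild-type and 13.3 and 18.7 FPKM in knockout mice. Groups did not overlap for these 3 genes, with log2 differences between 0.54 and 0.87. That of Tle1 was 0.44 without mouse WT-140 and 1.31 without mouse WT-139. Ep300, an acetyltransferase recruited by β-catenin, read 10.8 and 5.89 FPKM in wild-type and 4.30 and 5.57 FPKM in knockout mice, a log2 difference of -0.61 ± 0.37 that was -0.22 without mouse WT-139. Rnf146, the ubiquitin ligase that destroys Axin after tankyrase has marked it, stood at 11.98 to 12.5 FPKM in Usp25+/+ and 12.1 to 14.0 FPKM in Usp25-/- mice. Tcf7 stood at 2.39 to 2.95 FPKM against 1.75 to 2.97 FPKM, and Lef1 did not exceed 0.68 FPKM. Both encode TCF factors that T cells use.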

How the data were processed

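PolyA RNA was sequenced from 4 mice, and the authors deposited FPKM values, 1 column per mouse, for 24421 genes. Bowtie 0.12.2 and the build mm9 appear, without a stated role, per the submitters' processing notes; how FPKM were computed, on which annotation, with what filter and whether by strand is not given in the sources used here. FPKM carries no read total, so depth is unknown. The 27 symbols turned into dates were left out, leaving 24394 genes. Genes reaching 1 FPKM in at least 2 mice (12103) were analysed as log2(FPKM + 1) with limma 3.58.1 in R 4.3.3, with a mean-variance trend. Tests were two-sided and p-values were adjusted over the whole table by Benjamini-Hochberg. The test was checked on simulated data with independent normal noise for each gene. That check cannot show how the test behaves where a whole mouse stands apart. Whether the mice came from separate litters is not recorded, so p-values measure only the spread between these 4 mice. Positions are from Gencode's mm9 annotation (Python 3.11.15, pandas 2.3.3, matplotlib 3.10.9). The members and lists were chosen with earlier results of these data known. Every tested member is named; of the other pathway genes, those called and otherwise the 6 with the smallest p, plus Ctnnb1, Rnf146, Lef1 and Tcf7. Other pseudocounts, filters, scalings and variance models were tried, and each mouse was left out in turn.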

Additional observations from a re-analysis of the deposited data

How the results depend on the processing

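With a pseudocount of 0.1, no filter, median-of-ratios scaling, a common library total and limma without its trend, limma called 0 genes after adjustment (397 to 571 at an unadjusted p under 0.05), and the tested members and named genes kept their direction in 180 of 180 comparisons. Scalings moved the median of all genes by less than 0.1 on the log2 scale. Without the filter the component median was 0.053 and the target median 0.0078. There 2 components and 2 targets were lower without overlap, beside 12.8% of all genes. With the common total 2 components and 0 targets were lower without overlap, beside 14.6% of all genes, as the groups of Znrf3 then overlapped. Leaving out each mouse in turn gave 0 to 163 called genes, none of them a member (163 without mouse WT-140), and component medians of 0.094 to 0.22 and target medians of 0.13 to 0.36. Components higher without overlap then numbered 9 to 13 and lower 1 to 5, and targets 3 to 4 and 1 to 2, since fewer mice overlap less, beside 30.3% to 46.1% of all genes higher and 22.6% to 37.2% lower. The mouse then alone in its genotype is assumed to vary like the other genotype's pair. Directions turned for the following genes, given as the range of log2 differences: Wnt7b -0.064 to 1.18, Fzd1 -0.14 to 0.35, Fzd4 -0.73 to 0.26, Fzd5 -0.59 to 0.28, Fzd8 -0.68 to 0.11, Dkk3 -0.60 to 0.14, Tnks2 -0.067 to 0.60, Axin1 -0.010 to 0.24, Apc -0.57 to 0.19, Gsk3b -0.31 to 0.14, Tcf7l2 -0.52 to 0.61, Nkd1 -0.83 to 0.041, Cd44 -0.83 to 0.28, Rnf146 -0.018 to 0.18 and Tcf7 -0.41 to 0.12. Usp25 was called only without mouse WT-140 (-3.65, limma adjusted p = 0.0341). No paired analysis was possible because the labels record no pairing, litter or batch of the mice. Depth is unknown, so levels below 1 FPKM may be too shallow to compare.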
